A study of Mus musculus with 15 samples.

Results

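Mouse hearts in which CELF2 was induced for 7 d were compared with hearts induced for 72 h, over the 10540 of 16199 genes in the expression table whose mean level across these 6 hearts was at least 1 RPKM (reads per kilobase of coding sequence, scaled to the number of mapped reads). The 6 hearts, 3 at each time, belong to a series of 15. All 6 came from FVB mice aged 14 to 16 weeks that carried both MHCrtTA, which drives the reverse tetracycline transactivator from the alpha-myosin heavy chain (Myh6) promoter in cardiomyocytes, and TRECUGBP2, a Tet-inducible transgene that, per the study's methods, encodes FLAG-tagged human CELF2. The titles, genotype and protocol give CELF2 in heart, but a second genotype entry for each of these 6 hearts says Celf1, and so does the series' own design summary, which is about skeletal muscle. All ate food with doxycycline for the stated time, at 2 g/kg per the labels but at a higher dose in the study's supplementary list of animals. The comparison is therefore one of length of induction and has no uninduced side. The other 9 hearts were 3 each at 12 h and 24 h of induction and 3 controls that carried MHCrtTA alone and ate doxycycline for 72 h. Here they added to the estimate of spread between hearts and gave the range of the controls. The tissue was ventricle with the atria and part of the apex removed, so it held the other cell types of the heart wall beside the myocytes in which rtTA is made. Inhba, with a mean of exactly 1.0 RPKM, was the lowest gene kept, and the highest gene left out, Entrez435970, had a mean of 0.998 RPKM.

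CELF2, also called CUGBP2, is an RNA-binding protein that recognises GU-rich sequence in pre-mRNA and mRNA and regulates alternative splicing, mRNA stability and translation. CELF proteins are abundant in the fetal heart and decline after birth, while the activity of MBNL proteins, which regulate many of the same transcripts, goes up. CELF proteins are raised again in the heart in myotonic dystrophy. A ventricle under strain is known for a set of re-expressed genes, among them the natriuretic peptides and skeletal alpha-actin. It is also known for lower expression of the enzymes that burn fatty acids. The paper, however, reports no heart pathology in its CELF2 mice. After a longer induction than any studied here, it found no abnormality of ECG, echocardiography, heart size or morphology. Whether the hearts compared here were under strain was not tested.

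The titles carry a numerical code that the sources used here do not explain. The first code, in titles such as Celf2heart_72h_101117_A6834, was on hearts A6834 and A6835 at 72 h and A6838 at 7 d, and the second code, as in Celf2heart_72h_101203_A6750, was on heart A6750 at 72 h and hearts A6836 and A6837 at 7 d. Over the 6 hearts, 92.3% of the first principal component (55.3% of the variance) lay between the codes, and 77.9% of the second (28.3% of the variance) lay between the times. The code was therefore a term in the model, and each log2 change below is the mean of the 2 differences within codes. Genes listed at 0 RPKM numbered 1844 to 1977 in the hearts of the first code and 1463 to 1551 in the hearts of the second code. The lowest Spearman correlation between any pair of the 6 hearts was 0.961. The depth of the libraries is unknown. Values of single hearts are given in the order A6834, A6835 and A6750 at 72 h, then A6838, A6836 and A6837 at 7 d.

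Celf2 mRNA, the induced gene, stood at 261, 217 and 213 RPKM at 72 h and 359, 353 and 261 RPKM at 7 d. All 3 hearts at 7 d were above all 3 at 72 h, the nearest pair by less than 1 RPKM. The mean was 9.82 ± 1.37 RPKM (SD, n = 3) in controls, 230.3 ± 26.4 RPKM at 72 h and 324 ± 54.8 RPKM at 7 d. The ratio of 7 d to 72 h was 1.41, with p = 0.1 in a two-sided exact permutation test, the smallest value that 3 hearts against 3 can give. The limma adjusted p was 0.195, so Celf2 was not called. The ratio was 1.50 within the first code and 1.44 within the second code, and after median-ratio scaling of the hearts it was 1.31 with overlapping groups (exact permutation p = 0.2). The sources used here do not say how reads of the human transgene were assigned to mouse Celf2. None of the 4 CELF and MBNL genes tested was called by limma, and 3 had an unadjusted p under 0.05. Celf1 had means of 8.92 RPKM at 72 h and 11.0 RPKM at 7 d beside 23.8 RPKM in controls (adjusted p = 0.0962), Mbnl1 had 23.4 and 28.7 RPKM (adjusted p = 0.234) and Mbnl2 had 39.2 and 49.4 RPKM (adjusted p = 0.170).

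**Figure D1:**
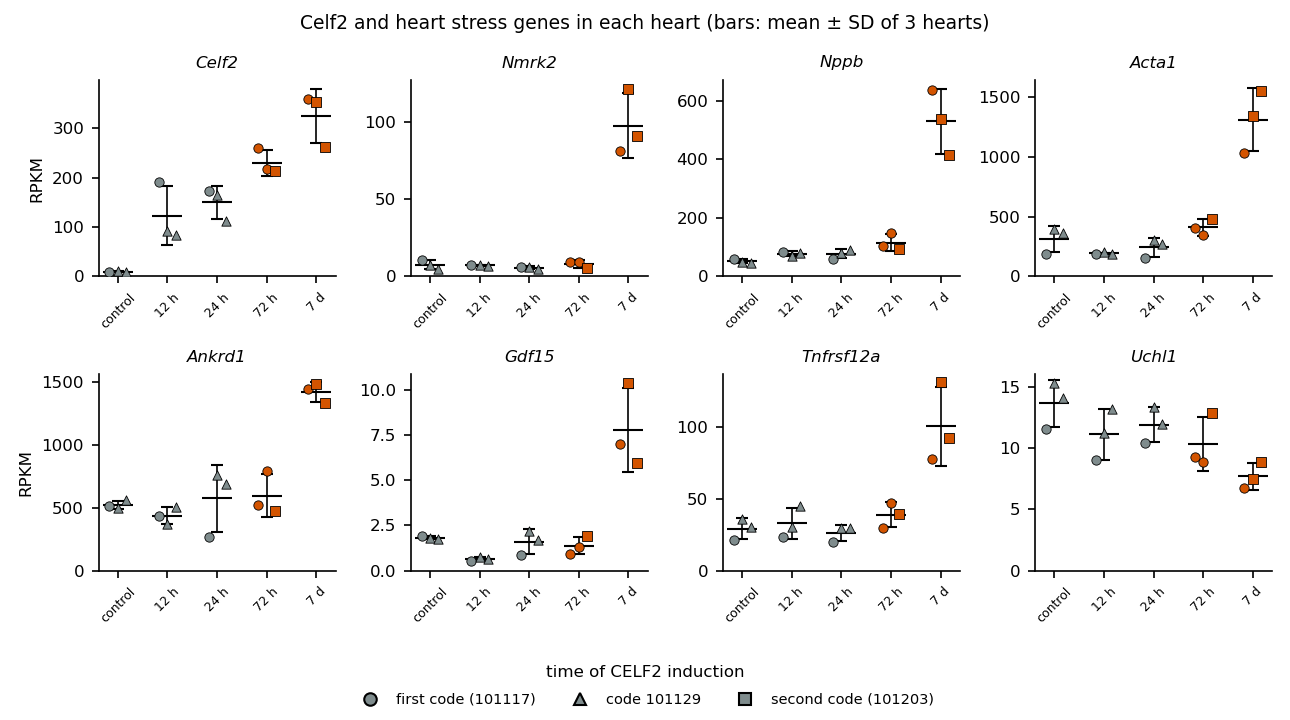
RPKM of Celf2 and 7 heart stress genes in each of the 15 hearts by time of CELF2 induction, with the mean and SD of 3 hearts as bars, symbols for the title code and orange for the hearts at 72 h and 7 d. Nppb runs from 93.7 to 149 RPKM at 72 h and from 416 to 637 RPKM at 7 d, and Nmrk2 from 5.22 to 9.66 and from 81.2 to 121 RPKM.

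Between 72 h and 7 d, 456 genes rose (4.33% of those tested) and 257 fell (2.44%) at a limma adjusted p under 0.05, on log2 of RPKM plus 0.5. The genes that rose most were Nmrk2, Nppb, Gdf15, Scgb1c1 and Arntl, and those that fell most were Per1, Ciart, Fam107a, Dbp and Ucp3. Most changes were small. The median log2 change was 0.51 among genes that rose and -0.51 among those that fell, and 30 of the former and 20 of the latter changed at least 2-fold. The median of all genes tested was 0.05. Without the adjustment, 2424 of the 10540 genes tested had p under 0.05. The unadjusted counts given for the lists below are to be read beside that share. The 3 hearts at 7 d did not overlap the 3 at 72 h for 577 of the 713 called genes (80.9%), beside 2184 of all genes (20.7%). The balance of rises and falls depended on the scaling: rises were 64.0% of the calls on the deposited RPKM, but 46.9% (363 higher and 411 lower) after median-ratio scaling. The counts also rested on 2 hearts. Without A6750, the one 72 h heart of the second code, 53 genes were called higher and 24 lower, and without A6838, the one 7 d heart of the first code, 57 and 61 were. Either omission leaves a single code to carry the contrast.

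Since hearts with each code were present at both times, each gene's change was measured once within the first code and once within the second code, with no heart in common. All 713 called genes had the same sign in both codes, which the mean of both differences favours. Over all genes, 68.9% had the same sign, and the 2 differences had a Pearson r of 0.58 and a Spearman rho of 0.53 across genes, which are not independent replicates. Of the 40 genes at least 2-fold higher within the first code, 39 were higher within the second code, 16 of them at least 2-fold. Of the 16 genes at least 2-fold lower within the first code, 13 were lower within the second code, 8 of them at least 2-fold. The second code had more large differences, with 102 genes at least 2-fold higher and 48 at least 2-fold lower, of which 94 and 46 had the same sign within the first code. No gene had a difference between the codes at a limma adjusted p under 0.05, and 317 had one at an unadjusted p under 0.05. Gene by gene the contrast could be tested within 1 code using the spread of all hearts, and then 51 genes were called higher and 21 lower within the first code, and 68 and 73 within the second code.

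**Figure D2:**
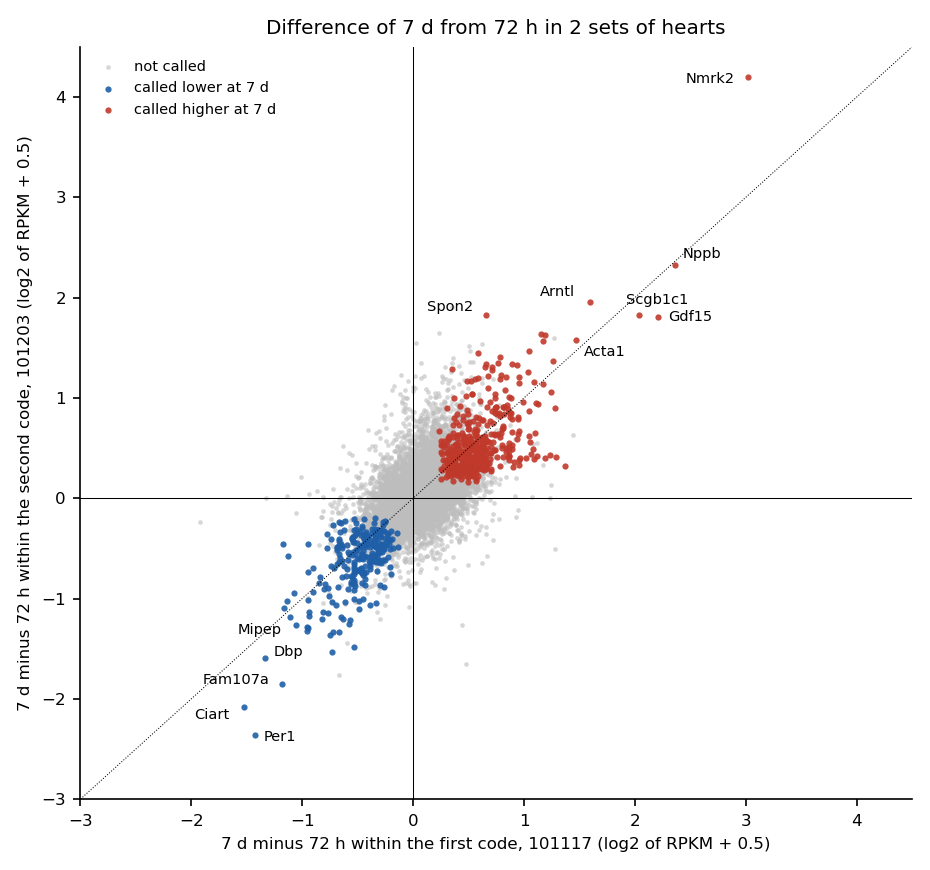
Difference between 7 d and 72 h (log2 of RPKM plus 0.5) within the first code on the horizontal axis and within the second code on the vertical axis, 1 point for each of 10540 genes, with called genes in red (higher) and blue (lower). Nppb (2.36 and 2.33) lies far up and close to the dotted line of equality, and Nmrk2 (3.02 and 4.21) lies further up and above that line. Per1 (-1.43 and -2.36) and Ciart (-1.53 and -2.08) lie far down and below it.

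Heart stress genes rose. Of 21 tested members of this list, 11 were called higher and 1 lower, and the list median was 0.41 beside 0.05 for all genes. This list, like the others, was chosen with earlier results of these data known, so its count is a description and no test. The largest rise in the whole comparison was that of Nmrk2, a muscle nicotinamide riboside kinase that makes NAD precursor (mm9 chr10:80660915-80664782, minus strand). It stood at 9.66, 9.49 and 5.22 RPKM at 72 h and 81.2, 121 and 90.8 RPKM at 7 d, so the groups were far apart, and the 72 h mean lay within the range of the controls, whose mean was 7.72 RPKM. The means were 8.12 ± 2.52 and 97.8 ± 21.1 RPKM (SD, n = 3), a 12.0-fold ratio and a log2 change of 3.61 (SE 0.26, adjusted p = 2.78e-05). In mm9 an exon of Nmrk2 overlaps the opposite-strand transcript 2310050B05Rik, and whether the counting used strand is not stated.

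The natriuretic peptide gene Nppb (mm9 chr4:147359897-147361314, plus strand) encodes a hormone that stretched ventricle releases. It stood at 103, 149 and 93.7 RPKM at 72 h and 637, 538 and 416 RPKM at 7 d. Every 7 d heart was well above every 72 h heart, and the mean rose 4.60-fold (log2 change 2.34, SE 0.18, adjusted p = 2.78e-05), after a mean of 52.5 RPKM in controls, 78.5 RPKM at 12 h and 77.5 RPKM at 24 h. The related hormone gene Nppa had means of 38.5 RPKM at 72 h and 138 RPKM at 7 d but missed the threshold (log2 change 1.44, adjusted p = 0.0756). Its hearts held 33.8, 28.2 and 53.6 RPKM at 72 h and 75.3, 125 and 215 RPKM at 7 d, with no overlap, and the hearts of the second code were the highest at each time.

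Acta1, the skeletal muscle alpha-actin, stood at 403, 345 and 482 RPKM at 72 h and 1032, 1342 and 1550.5 RPKM at 7 d, and the groups did not overlap (log2 change 1.52, SE 0.17, adjusted p = 0.000348). Its cardiac counterpart Actc1, with closely related coding sequence, rose less, from 6910.4 ± 82.6 to 8945 ± 443 RPKM (log2 change 0.35, adjusted p = 0.0266), and lost its call when any 1 of the 6 hearts was left out. The titin-associated ankyrin repeat genes Ankrd1 and Ankrd2 rose. Ankrd1 stood at 519, 790.4 and 474 RPKM at 72 h and 1445, 1486 and 1331 RPKM at 7 d (log2 change 1.37, SE 0.27, adjusted p = 0.0100). It lost its call without heart A6750 and without A6838. The related gene Ankrd2, which is far less abundant, rose from 0.403 ± 0.144 to 1.91 ± 0.411 RPKM (log2 change 1.40, adjusted p = 0.000526).

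Gdf15 encodes a hormone related to TGF-beta that stressed cells release, and stood at 0.940, 1.33 and 1.89 RPKM at 72 h and 6.99, 10.4 and 5.93 RPKM at 7 d. It was low at every earlier time, with a mean of 1.82 RPKM in controls, and its log2 change was 2.01 (SE 0.23, adjusted p = 0.000460). Tnfrsf12a, the receptor of the cytokine TWEAK, rose from 38.8 ± 8.67 to 101 ± 27.4 RPKM (log2 change 1.26, adjusted p = 0.00261); its exons overlap Hcfc1r1 on the opposite strand. The smaller rises were those of Timp1 (log2 change 0.54), Rcan1, an inhibitor of calcineurin (0.60), Fhl1 (0.41) and Xirp1 (0.37). The member that fell was Uchl1, a ubiquitin hydrolase, with 9.31, 8.88 and 12.9 RPKM at 72 h and 6.76, 7.47 and 8.88 RPKM at 7 d (log2 change -0.51, adjusted p = 0.00930). The 2 ranges of Uchl1 touched, because the 72 h heart A6835 and the 7 d heart A6837 both held 8.88 RPKM. Myh7, the slow myosin heavy chain, had 2167, 1961 and 2532 RPKM at 72 h and 1764, 1872 and 1913 RPKM at 7 d, a log2 change of -0.32 that missed the threshold (adjusted p = 0.0689). Under the other scalings, without the term for the code and with single hearts left out, the stress list had between 5 and 11 higher calls.

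Clock genes changed in both directions. The circadian clock rests on the transcription factors BMAL1 (Arntl) and CLOCK, which bind E-box sequence and drive Per, Cry, Ciart, Dbp and Tef, and on ROR and REV-ERB receptors, which bind another element and control Arntl and Nfil3. Of 20 clock genes tested, Arntl and Nfil3 were called higher and Ciart, Per1, Per2, Dbp, Tef and Cry2 were called lower, with a list median of -0.27. The sources used here do not give the hour at which each heart was collected. Hour of day and length of induction therefore cannot be told apart, for these genes or for any other gene compared. The promoters printed for Ciart, Per1, Tef and Arntl were picked because they hold one of these elements, and that of Dbp, the second promoter of Per1 and the first of Arntl hold neither. They are RefSeq sequences (GRCm38.p6) of the window that spans the start of the transcript, 5′ to 3′ on the gene's strand, with each E-box CACGTG and each ROR half-site AGGTCA, on either strand, in capitals (a half-site on the other strand reads TGACCT).
Ciart (chr3:95882179-95882478, minus strand): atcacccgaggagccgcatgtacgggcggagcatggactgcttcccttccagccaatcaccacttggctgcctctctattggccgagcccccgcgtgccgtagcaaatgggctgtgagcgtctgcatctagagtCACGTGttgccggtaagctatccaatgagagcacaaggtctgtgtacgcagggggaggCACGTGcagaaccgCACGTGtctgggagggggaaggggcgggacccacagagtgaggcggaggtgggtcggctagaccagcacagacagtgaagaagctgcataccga
Per1, first promoter (chr11:69098699-69098998, plus strand): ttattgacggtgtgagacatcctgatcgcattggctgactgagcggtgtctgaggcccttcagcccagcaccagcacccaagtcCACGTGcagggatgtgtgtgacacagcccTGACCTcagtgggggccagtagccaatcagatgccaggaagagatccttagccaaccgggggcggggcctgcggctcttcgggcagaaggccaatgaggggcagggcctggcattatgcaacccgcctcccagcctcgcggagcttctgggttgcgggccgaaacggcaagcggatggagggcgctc
Tef, first promoter (chr15:81802423-81802722, plus strand): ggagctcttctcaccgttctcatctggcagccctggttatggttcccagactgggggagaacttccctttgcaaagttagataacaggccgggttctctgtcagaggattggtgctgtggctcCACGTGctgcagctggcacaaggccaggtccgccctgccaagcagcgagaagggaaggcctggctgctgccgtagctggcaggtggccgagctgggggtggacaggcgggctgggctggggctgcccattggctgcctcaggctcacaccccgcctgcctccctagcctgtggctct
Arntl, second promoter (chr7:113207261-113207560, plus strand): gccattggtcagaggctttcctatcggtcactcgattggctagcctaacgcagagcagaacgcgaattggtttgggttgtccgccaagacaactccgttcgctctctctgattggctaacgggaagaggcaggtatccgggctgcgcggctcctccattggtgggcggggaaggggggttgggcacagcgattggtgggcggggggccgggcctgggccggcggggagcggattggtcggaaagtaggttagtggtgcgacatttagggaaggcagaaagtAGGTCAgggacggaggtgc

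Ciart held 3 E-boxes in this window, Per1 held 1 E-box and 1 ROR half-site, Tef held 1 E-box and Arntl held 1 ROR half-site and no E-box. Of the clock genes that fell, Ciart, Per1, Dbp, Tef and Cry2 have promoters in the RefSeq table, 7 in all, of which 4 held an E-box and 1 a ROR half-site. The 2 genes that rose have 3 promoters, of which 0 held an E-box and 2 a ROR half-site. The clock genes that were not called have 14 promoters, and 2 of these held an E-box and 2 a ROR half-site. Of all 32851 mouse promoters in the table, 7.15% held CACGTG and 16.3% held AGGTCA, and of the 10854 promoters of genes tested here 10.2% and 12.4% did. A match describes these letters only, and Dbp and Cry2 fell with neither element in this window.

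Arntl (mm9 chr7:120350979-120457636, plus strand) had 1.19, 1.15 and 1.01 RPKM at 72 h and 4.54, 5.02 and 5.70 RPKM at 7 d. The 7 d hearts lay between 4.54 and 5.70 RPKM, far above the 72 h hearts and the controls (mean 0.623 RPKM) but below the mean of 6.45 RPKM at 12 h of induction. The log2 change was 1.77 (SE 0.14, adjusted p = 2.78e-05). Nfil3, a repressor that acts against Dbp, Tef and Hlf at their sites, rose from 4.38 ± 0.651 to 7.70 ± 0.819 RPKM, with a mean of 9.20 RPKM at 12 h (log2 change 0.70, adjusted p = 0.0159).

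Per1 (mm9 chr11:68908719-68923462, plus strand), a repressor of BMAL1 and CLOCK, had 13.6, 10.8 and 27.4 RPKM at 72 h and 4.19, 4.67 and 5.20 RPKM at 7 d. The 3 values at 7 d lay close together, while at 72 h heart A6750 held more than either heart of the first code (log2 change -1.89, SE 0.28, adjusted p = 0.00216). Ciart, another repressor of the clock, had 11.6, 6.50 and 13.4 RPKM at 72 h and 2.69, 2.42 and 3.19 RPKM at 7 d (log2 change -1.80, SE 0.23, adjusted p = 0.000856). Per2 fell by 1.06 and Dbp by 1.46 on the log2 scale, Tef by 0.69 and Cry2 by 0.65. At 12 h of induction Per2, Ciart and Dbp were also low, with means of 1.35, 2.52 and 22.6 RPKM beside 7.68, 12.8 and 95.4 RPKM in controls. Clock itself (log2 change 0.85, adjusted p = 0.207) and Nr1d1 (log2 change -0.26, adjusted p = 0.417) missed the threshold. Without heart A6750 only Arntl was called among clock genes, and without A6838 1 rise and 4 falls were.

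Glucocorticoid-induced genes were lower at 7 d. Glucocorticoid hormone follows a daily cycle and responds to stress, and its receptor raises these genes in many tissues. Of 18 tested, 5 fell and none rose, 1 had a change above 0, and the median was -0.56. At an unadjusted p under 0.05, 11 were lower and 1 was higher. Per1 is on this list as well as on the clock list. Tsc22d3, which encodes the anti-inflammatory protein GILZ, had 69.9, 68.5 and 91.1 RPKM at 72 h and 39.0, 37.8 and 40.7 RPKM at 7 d, with no overlap (log2 change -1.01, SE 0.21, adjusted p = 0.0138). The metallothionein gene Mt1 had 188, 206 and 244 RPKM at 72 h and 109, 121 and 165 RPKM at 7 d (log2 change -0.82, adjusted p = 0.00278). The transcription factor genes Klf9 and Klf15 fell by 0.44 and 0.48 on the log2 scale. The hearts of both overlapped when pooled over codes, and Klf9 had 31.3, 26.0 and 41.2 RPKM at 72 h and 21.1, 29.9 and 29.8 RPKM at 7 d. Ddit4 had a log2 change of -1.02 with adjusted p = 0.0567, and Cdkn1a was the member above 0 (0.81, adjusted p = 0.163). The list median was -0.36 within the first code and -0.85 within the second code, and without heart A6750 no member was called. Heart A6750 was the highest of the 72 h hearts for Per1, Mt1, Klf9, Klf15 and Tsc22d3.

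**Figure D3:**
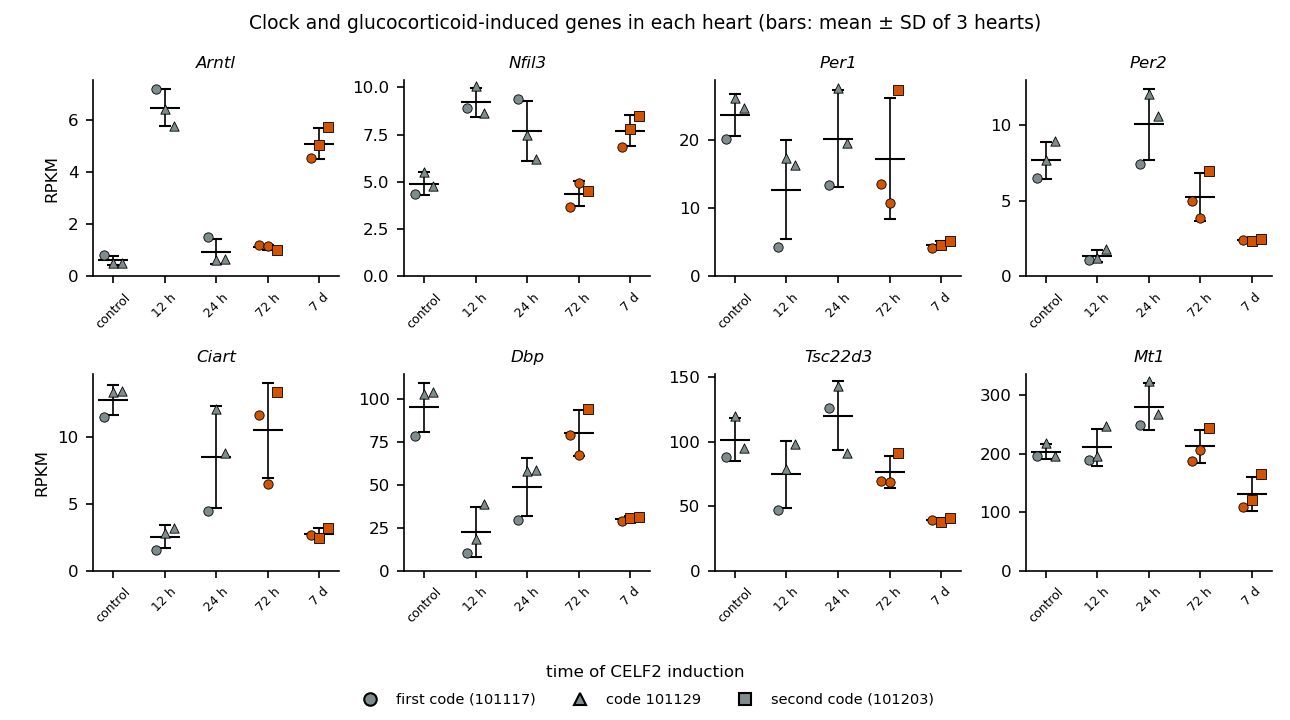
RPKM of 6 clock genes and of the glucocorticoid-induced genes Tsc22d3 and Mt1 in each of the 15 hearts, drawn as for the stress genes. Arntl is high at 12 h and 7 d and low at the other times, and Per1 lies between 4.19 and 5.20 RPKM at 7 d and between 10.8 and 27.4 RPKM at 72 h.

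Fatty acid oxidation genes were lower at 7 d. None of the 33 tested rose, 8 fell, and the median log2 change was -0.27. At an unadjusted p under 0.05, 19 were lower and 0 higher. Summed over the list, the hearts held 16456 to 16938 RPKM at 72 h and 11367 to 12164 RPKM at 7 d. Most of that difference in sum was the fall of Fabp3, the fatty acid-binding protein of heart muscle (mm9 chr4:129985839-129992707, plus strand). It had 8174, 8334 and 7045 RPKM at 72 h and 4577, 3784 and 4056 RPKM at 7 d, with no overlap and the same difference, -0.85, within both codes (log2 change -0.85, SE 0.11, adjusted p = 0.000941). At 72 h Fabp3 was above the controls (mean 5816 RPKM) and at 7 d below them. Its exons overlap Zcchc17 and Gm10570 on the opposite strand, and it lost its call after quantile normalization.

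Acadm, the medium-chain acyl-CoA dehydrogenase, had 759, 810.4 and 757 RPKM at 72 h and 571, 506 and 495 RPKM at 7 d (log2 change -0.53, SE 0.08, adjusted p = 0.00296). Hadha, a subunit of the mitochondrial trifunctional protein, and Cpt2, a carnitine palmitoyltransferase, fell by 0.31 and 0.37 on the log2 scale. Etfb, the electron acceptor of these dehydrogenases, fell by 0.43. Larger falls than these were seen in genes with low levels. Ucp3, a mitochondrial carrier of muscle, had 15.2, 9.75 and 18.0 RPKM at 72 h and 5.58, 6.66 and 7.78 RPKM at 7 d (log2 change -1.16, SE 0.30, adjusted p = 0.0341). The thioesterase gene Acot1 fell by 0.74 on the log2 scale. Cpt1b, the entry step of the pathway, had a log2 change of -0.27 that missed the threshold (adjusted p = 0.104). Ucp3 kept its call in 1 of the 6 fits with a heart left out (that without A6835), and lost it without a minimum level and without the term for the code. After median-ratio scaling 17 of the 33 fell, and without heart A6750 only 1 did.

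In the respiratory chain, 8 of 75 subunit genes of the complexes and ATP synthase fell and none rose, 17 had a change above 0, and the median was -0.11. At an unadjusted p under 0.05, 20 were lower and 2 higher. The muscle isoforms of cytochrome oxidase were among the 8. Cox6a2 had 3564, 3196 and 3738 RPKM at 72 h and 2128, 2265 and 2563 RPKM at 7 d (log2 change -0.65, SE 0.12, adjusted p = 0.00849). Cox7a1 had 1259.9, 1337 and 1281 RPKM at 72 h and 833, 894 and 943 RPKM at 7 d (log2 change -0.56, SE 0.10, adjusted p = 0.00583). For both, every 7 d heart was below every 72 h heart. Others that fell were Ndufa12, Ndufc2 and Ndufv3 of complex I, Cox7b and the ATP synthase subunit Atp5a1, with log2 changes from -0.45 (Ndufc2) to -0.25 (Cox7b). Exons of Cox6a2 overlap Itgad on the opposite strand. No member was called without heart A6750 or without A6838. In the citric acid cycle 1 of 20 genes fell, Sdhc, which is also a subunit of complex II, with 258, 294 and 352 RPKM at 72 h and 177, 218 and 238 RPKM at 7 d (log2 change -0.63, SE 0.08, adjusted p = 0.000791). The groups did not overlap, Sdhc fell by 0.64 within the first code and by 0.63 within the second code on the log2 scale, and it was not called without the term for the code.

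Of 27 genes of glucose uptake and glycolysis, 2 rose and 1 fell, and the median was 0.05, the same as for all genes to 2 decimals. Pfkp, the platelet isoform of phosphofructokinase, had 16.4, 16.1 and 17.9 RPKM at 72 h and 30.3, 32.7 and 30.8 RPKM at 7 d (log2 change 0.84, SE 0.10, adjusted p = 0.000583), and hexokinase gene Hk1 rose by 0.33. Pfkfb1, an isoform of the enzyme that sets fructose 2,6-bisphosphate, fell from 5.86 ± 1.04 to 2.59 ± 0.280 RPKM (log2 change -1.04, adjusted p = 0.00228). Exons of Pfkp overlap Pitrm1 and those of Pfkfb1 overlap Apex2, both on the opposite strand.

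Among glutathione and NRF2 target genes, 1 of 36 rose and 5 fell (median -0.10). Gpx1, the main cellular glutathione peroxidase, had 72.2, 70.6 and 77.7 RPKM at 72 h and 95.2, 120.3 and 110.3 RPKM at 7 d (log2 change 0.49, SE 0.07, adjusted p = 0.00230). The glutathione transferase gene Gsta3 had 7.04, 7.17 and 7.73 RPKM at 72 h and 3.41, 3.35 and 2.48 RPKM at 7 d (log2 change -1.12, SE 0.14, adjusted p = 0.000791). Ephx1, an epoxide hydrolase, Gstm2, Gstm1 and Mgst1 fell as well, by 0.68, 0.49, 0.44 and 0.63 on the log2 scale. The Gst genes have near-identical copies, so their values may be split between paralogs. None of the 6 was called without heart A6750.

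**Figure D4:**
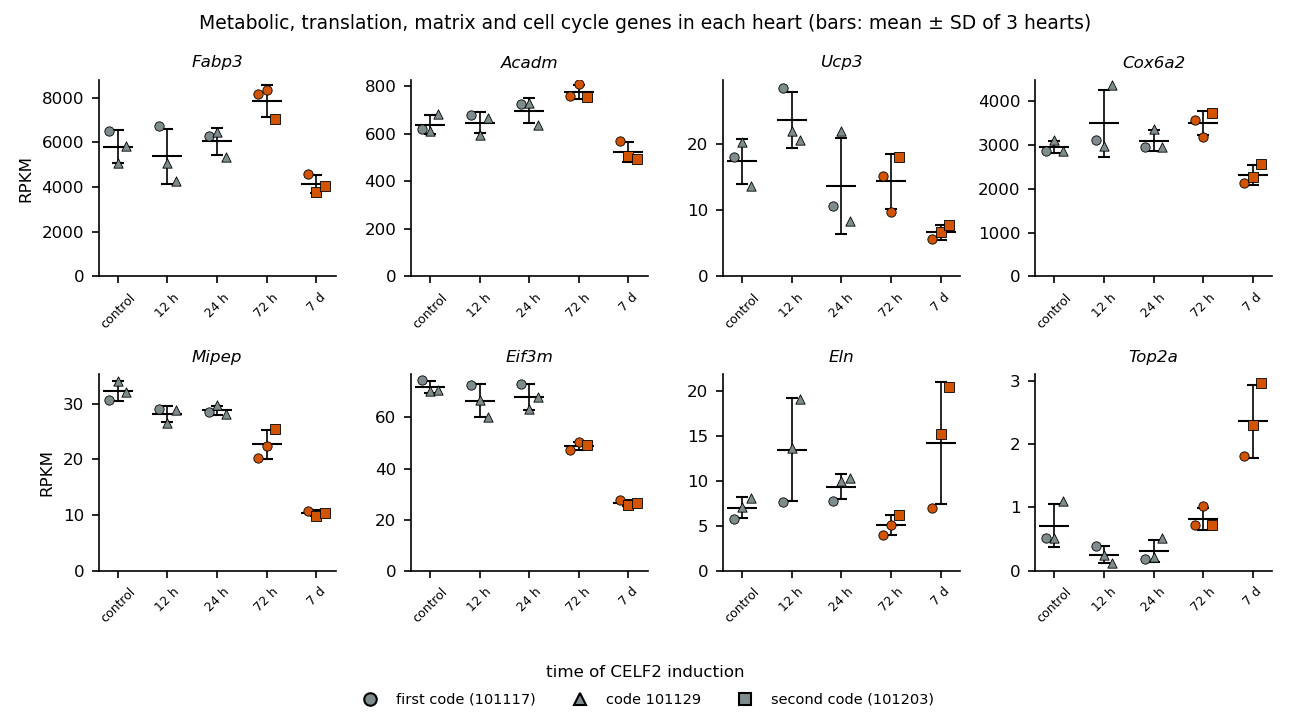
RPKM of Fabp3, Acadm, Ucp3, Cox6a2, Mipep, Eif3m, Eln and Top2a in each of the 15 hearts, drawn as for the stress genes. Mipep and Eif3m are lower at 72 h than at earlier times and lower again at 7 d, whereas Fabp3 is highest at 72 h (7045 to 8334 RPKM) and has its lowest mean at 7 d (3784 to 4577 RPKM), where the range takes in 1 heart at 12 h (4294 RPKM).

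The smallest adjusted p among the falls, 3.68e-05, was shared by Mipep and Eif3m. Mipep (mm9 chr14:61403403-61524315, plus strand) encodes the mitochondrial intermediate peptidase, which trims imported proteins. It had 20.2, 22.5 and 25.4 RPKM at 72 h and 10.8, 9.74 and 10.4 RPKM at 7 d, beside a control mean of 32.3 RPKM, and its log2 change was -1.12 (SE 0.09). Eif3m (mm9 chr2:104839813-104857237, minus strand) encodes a subunit of the initiation factor eIF3. It had 47.3, 50.3 and 49.1 RPKM at 72 h and 27.6, 25.5 and 26.5 RPKM at 7 d, beside a control mean of 71.9 RPKM, and its log2 change was -0.86 (SE 0.07). Both genes had narrow groups with no overlap and kept their call in all 20 alternative settings. Exons of Mipep overlap Gm15919 and those of Eif3m overlap Ccdc73, each on the opposite strand.

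Of 68 genes of translation initiation and elongation, 4 rose and 2 fell, Eif3m among them, with a median of 0.04. Eif3h, another eIF3 subunit, rose from 134 ± 1.52 to 159.9 ± 5.79 RPKM (log2 change 0.27, adjusted p = 0.0266), but not after median-ratio scaling. Eif3h also lost its call without the term for the code and when any 1 of the 6 hearts was left out. No gene of this list was called higher without A6750 or without A6838. Eif5 rose by 0.38, Eif2d by 0.33 and the elongation factor gene Eef1g by 0.32, while Eif4ebp3, an inhibitor of eIF4E whose exons are shared with Ankhd1, fell by 0.47. Of 75 cytosolic ribosomal protein genes 2 rose. Rpl3l, the striated muscle paralog of Rpl3, is not on this list and fell (log2 change -0.69). Rpl3 had 130.3, 114 and 144 RPKM at 72 h and 159, 201 and 205 RPKM at 7 d (log2 change 0.44). Rpl9, which has processed copies in the genome, had 234, 183 and 279.6 RPKM at 72 h and 325, 426 and 357 RPKM at 7 d (log2 change 0.56), and its call was lost after median-ratio scaling. No cytosolic ribosomal gene was called without A6835, A6750 or A6838. Of 75 mitochondrial ribosomal genes Mrpl19 (0.44) and Mrps10 (0.37) rose and Mrpl22 (-0.31) fell. After median-ratio, upper-quartile or quantile scaling 0 rose and 2 fell, and none was called without A6834, A6750, A6838 or A6836. No aminoacyl-tRNA synthetase gene of 20 was called by limma, and 2 had an unadjusted p under 0.05.

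Of 30 sarcomere and Z-disc genes, 4 rose and 5 fell. Csrp3, the muscle LIM protein, had 971, 1022 and 905 RPKM at 72 h and 1311, 1472 and 1331 RPKM at 7 d (log2 change 0.51, SE 0.09, adjusted p = 0.00531). Tpm2, a tropomyosin abundant in skeletal muscle, had 24.0, 28.1 and 41.5 RPKM at 72 h and 54.3, 72.8 and 80.2 RPKM at 7 d (log2 change 0.96, SE 0.19, adjusted p = 0.00907). Both were higher in every 7 d heart than in any 72 h heart, and the filamin gene Flnc (log2 change 0.50) and Actc1, given above, were the others that rose. Of the falls, Myoz2, a calcineurin-binding Z-disc protein, had 476, 491 and 458 RPKM at 72 h and 360.0, 331 and 332 RPKM at 7 d, with no overlap (log2 change -0.45, SE 0.06, adjusted p = 0.00136). Tnnc1, the calcium sensor troponin C, fell by 0.41, the telethonin gene Tcap by 0.52, Actn2 by 0.37 and the chaperone gene Cryab by 0.24 on the log2 scale. Myh6, the gene whose promoter drives rtTA, had means of 6704 RPKM at 72 h and 5581 RPKM at 7 d and missed the threshold (log2 change -0.31, adjusted p = 0.0547). Myh6 and Myh7 share near-identical stretches, and how reads were divided there is not stated beyond unique mapping. No sarcomere gene was called without heart A6750.

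In calcium handling, 1 of 30 genes rose and 1 fell. The calcium release channel Itpr1 had 12.6, 10.5 and 6.75 RPKM at 72 h and 21.0, 20.8 and 12.6 RPKM at 7 d (log2 change 1.02, SE 0.21, adjusted p = 0.0120). Its groups nearly met, the lowest 7 d heart being above the highest 72 h heart by less than 0.1 RPKM, and it was not called without the term for the code. S100a1, a calcium-binding regulator of the ryanodine receptor and SERCA, had 1049, 1050.2 and 887 RPKM at 72 h and 753, 643 and 636 RPKM at 7 d (log2 change -0.48, SE 0.06, adjusted p = 0.000906). Of 20 potassium channel genes Kcnj5 rose, from 9.28 ± 1.07 to 14.5 ± 0.985 RPKM. In beta-adrenergic signalling the phosphodiesterase Pde4b rose by 0.51 and Pde4a fell by 0.34, 2 of 21 genes tested. No gene of these 2 lists was called without heart A6750 or without A6838. None of 31 calcineurin, NFAT and hypertrophy signalling genes was called by limma, and 2 had an unadjusted p under 0.05. The calcineurin inhibitor gene Rcan1, which was called higher, was counted with the heart stress genes and not in this list.

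Of 36 collagen and matrix genes, 9 rose and 1 fell, and the median was 0.22. Eln, the elastin gene, had 3.95, 5.07 and 6.14 RPKM at 72 h and 6.97, 15.2 and 20.4 RPKM at 7 d (log2 change 1.02, SE 0.21, adjusted p = 0.0129). The mean of Eln was already 13.4 RPKM at 12 h, then 9.33 RPKM at 24 h, beside 6.98 RPKM in controls. Fbn1 and Loxl2 had 12 h means of 6.71 and 4.03 RPKM, below their 7 d means. The basement membrane collagen genes Col4a1 and Col4a2 rose by 0.60 and 0.67, and Col4a2 had 44.1, 56.1 and 69.6 RPKM at 72 h and 70.2, 109 and 145 RPKM at 7 d. The others that rose were Fbn1, which makes fibrillin microfibrils (log2 change 0.83), the crosslinking enzymes Loxl1 (0.35) and Loxl2 (0.53), the protease Mmp14 (0.46), Col6a2 (0.39) and Col8a1 (0.47). Timp3, an inhibitor of matrix proteases whose exons overlap Syn3 on the opposite strand, fell from 45.6 ± 15.0 to 25.5 ± 2.72 RPKM (log2 change -0.92, adjusted p = 0.00515). The mean of Timp3 was 27.1 RPKM at 12 h and 67.7 RPKM at 24 h. The list median was 0.07 within the first code, near the 0.08 of all genes there, and 0.41 within the second code. Without A6750 no matrix gene was called, and without A6838 3 rose and 1 fell. Of 16 fibroblast markers none was called by limma and 2 had an unadjusted p under 0.05, and their summed level was 1165 to 1475 RPKM at 72 h and 1111 to 1464 RPKM at 7 d.

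Of 26 cell cycle genes, 5 rose and none fell (median 0.20), and those that rose most were near 1 RPKM at 72 h. Top2a, the replicative topoisomerase, had 0.720, 1.02 and 0.720 RPKM at 72 h and 1.81, 2.30 and 2.96 RPKM at 7 d (log2 change 1.06, SE 0.24, adjusted p = 0.0210). Cdc20, which activates the anaphase-promoting complex, rose by 0.75, the cyclins Ccnb2 and Ccna2 by 0.95 and 1.00, and the kinase inhibitor Cdkn2c by 0.52. Cdk1 missed the threshold (log2 change 0.99, adjusted p = 0.053). Which cells of the heart wall held these transcripts was not tested. Top2a and Ccnb2 lost their call at a pseudocount of 0.1. The list median was 0.10 within the first code and 0.43 within the second code. No cell cycle gene was called without heart A6750 or without A6838, and 1 was without A6834 or without A6837.

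Of 49 splicing factors, 1 rose and 3 fell. Hnrnpll rose by 0.39 on the log2 scale, and Rbfox1 and Hnrnpdl were among those that fell. Rbfox1, a regulator of muscle exons, had 9.46, 8.73 and 12.8 RPKM at 72 h and 6.53, 5.61 and 6.66 RPKM at 7 d (log2 change -0.73, SE 0.14, adjusted p = 0.00913). Hnrnpdl had 44.6, 40.8 and 45.2 RPKM at 72 h and 34.7, 31.1 and 34.1 RPKM at 7 d beside a control mean of 30.4 RPKM, so its fall brought it toward the controls (log2 change -0.38). Of 45 genes of mRNA decay and deadenylation, Cnot8, a deadenylase, rose by 0.33, Lsm2 fell by 0.39 and Tob2, an adaptor of the deadenylase complex, had 12.6, 13.4 and 24.95 RPKM at 72 h and 7.62, 8.48 and 8.12 RPKM at 7 d (log2 change -1.13, SE 0.19, adjusted p = 0.00389). Without heart A6750 no gene of either list was called, and after median-ratio scaling Cnot8 was not.

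No gene was called by limma among 20 chaperones of the endoplasmic reticulum, 27 interferon response genes, 12 genes of MHC class I presentation and 20 immediate early genes, of which 3, 1, 0 and 4 had an unadjusted p under 0.05. Of 25 targets of ATF4, Cebpb (log2 change -0.92) and Chac1 (-0.72) fell, both highest in heart A6750 at 72 h. The stress hormone gene Gdf15, which was called higher, was counted with the heart stress genes and not in this list. Of 25 heat shock genes Hspb3 rose, from 11.1 ± 1.06 to 18.4 ± 2.78 RPKM, and Dnajb1, Hspe1 and Hspd1 fell. Exons of Hspe1 and Hspd1 overlap on opposite strands. The proteasome had 1 rise (Psmd13) and 1 fall (Psmd7) among 40 genes, muscle atrophy and autophagy 1 fall (Map1lc3a) among 31, cholesterol and lipid synthesis 1 rise (Lss) and 2 falls (Fdft1 and Me1) among 24, and cardiac transcription factors 1 fall (Tbx5, log2 change -0.59) among 24. The proteasome counts depended on the scaling, with 0 rises and 6 falls after median-ratio scaling and 0 and 8 after upper-quartile scaling, and its 2 calls were lost when any 1 of the 6 hearts was left out. Without heart A6750 no gene of the lists from ATF4 targets to cardiac transcription factors given here was called.

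**Figure D5:**
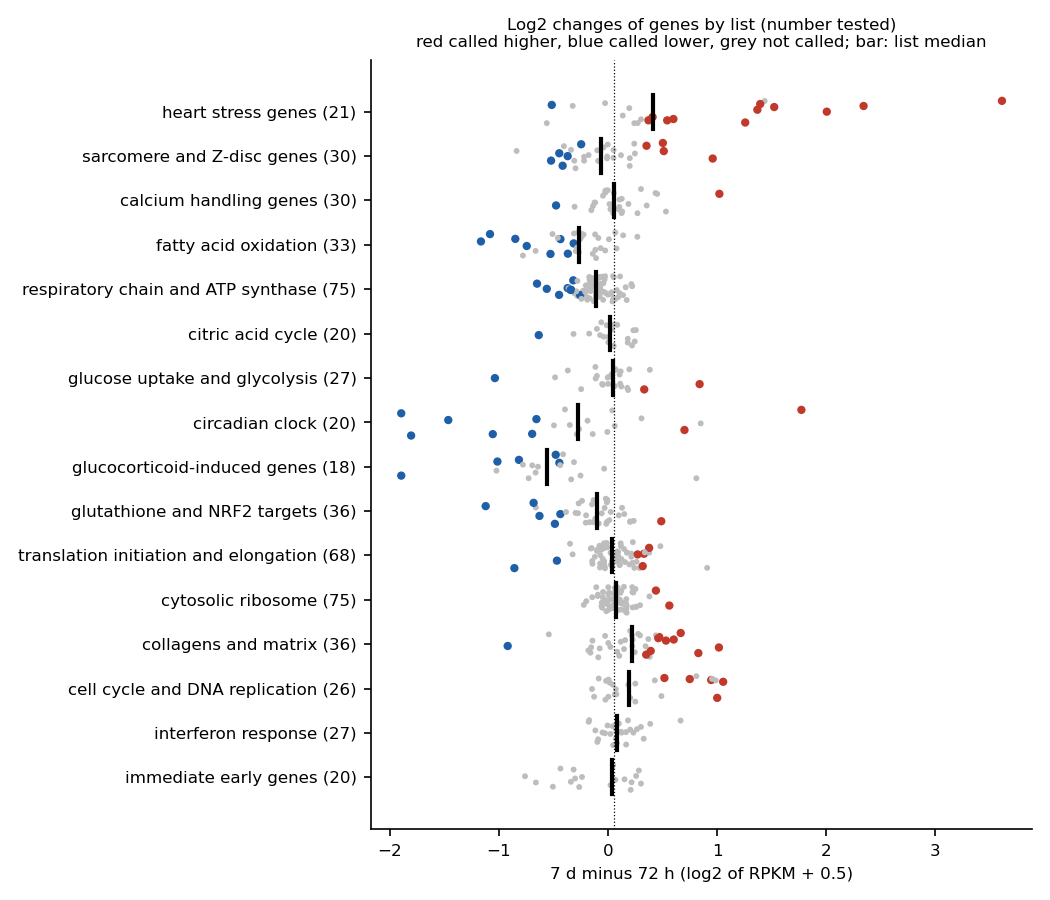
Log2 change between 72 h and 7 d (horizontal axis, log2 of RPKM plus 0.5) of every tested member of 16 gene lists, with the number tested in parentheses, red and blue points for called genes, a bar at the list median and a dotted line at the median of all genes (0.05). Red points stretch to the right for heart stress genes, and blue points to the left for the clock, glucocorticoid-induced and fatty acid oxidation lists.

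Among the large changes on no list, Scgb1c1, a secretoglobin, had 15.2, 11.4 and 21.1 RPKM at 72 h and 55.7, 82.5 and 70.2 RPKM at 7 d (log2 change 1.93, SE 0.18, adjusted p = 0.000122). Upp1, a uridine phosphorylase, had 1.99, 2.32 and 2.31 RPKM at 72 h and 5.86, 7.28 and 6.25 RPKM at 7 d (log2 change 1.31, SE 0.13, adjusted p = 0.000180). Zfp180, a zinc finger gene, had 5.51, 5.23 and 5.97 RPKM at 72 h and 12.8, 14.1 and 13.5 RPKM at 7 d (log2 change 1.16, SE 0.12, adjusted p = 0.000180), and all 3 genes had differences of like size within both codes. Colq, the collagen tail of acetylcholinesterase, rose from 4.51 ± 0.700 to 11.3 ± 1.77 RPKM (its exons are shared with Hacl1). Tmem63c, Adam22 and Spon2 rose from means under 1 RPKM at 72 h to means of 1.72, 1.63 and 2.62 RPKM. At 12 h of induction the mean of Spon2 was 5.75 RPKM, above its 7 d mean, and at 24 h it was 0.497 RPKM. The 12 h means of Tmem63c and Adam22 were 0.0867 and 0.473 RPKM. Of the falls, Fam107a and Depp1 were highest at 72 h in heart A6750, and Depp1 lost its call when any 1 of the 6 hearts was left out. Fam107a had 2.08, 1.78 and 4.90 RPKM at 72 h and 0.570, 0.840 and 1.16 RPKM at 7 d (log2 change -1.52, SE 0.25, adjusted p = 0.00432). Itgb6, an integrin beta subunit, had 1.94, 2.43 and 1.51 RPKM at 72 h and 0.690, 0.540 and 0.350 RPKM at 7 d (log2 change -1.13, SE 0.17, adjusted p = 0.00268). Acsm5, an acyl-CoA synthetase, fell from 2.91 ± 0.164 to 1.03 ± 0.172 RPKM and Lypd2 from 3.15 ± 0.411 to 1.24 ± 0.465 RPKM.

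Cardiomyocyte markers were the most abundant, with a summed level of 69072 to 69998 RPKM at 72 h and 59292 to 61540 RPKM at 7 d. These sums did not overlap, 3 of the 15 markers fell (Fabp3, Tnnc1 and Actn2) and Actc1 rose, and the list median was -0.22. The shift depended on the scaling, with 1 rise, 6 falls and a median of -0.28 after median-ratio scaling, and 0 rises, 1 fall and a median of -0.06 after quantile normalization. Without A6750 or without A6838, 0 rose and 1 fell. In whole ventricle, fewer cells of a type and less RNA of its genes per cell cannot be told apart. The part of this shift in the falls of the metabolic genes was not tested. Endothelial markers had 1 of 18 lower (Sox17), smooth muscle and pericyte markers 0 of 12 called by limma (1 at an unadjusted p under 0.05) and macrophage markers 1 of 15 higher (Cx3cr1, 1.36, 0.730 and 0.840 RPKM at 72 h and 1.67, 2.38 and 2.66 RPKM at 7 d), with summed macrophage levels of 118 to 166 RPKM at 72 h and 150 to 198 RPKM at 7 d. In blood cell lists, all but 1 of 14 lymphocyte markers were under 1 RPKM in each heart, the granulocyte gene Elane was at 0, and the red cell sum was 1154 to 1902 RPKM at 72 h and 1316 to 1902 RPKM at 7 d. Atrial myocyte markers summed to 488 to 669 RPKM at 72 h and 558 to 877 RPKM at 7 d, and Tbx5 was the 1 of 8 called. The Schwann cell gene Cdh19 fell (log2 change -0.59) and the red cell gene Bpgm rose (0.36). None of 8 adipocyte, 3 mesothelial and 6 skeletal muscle markers was called by limma (3, 1 and 0 at an unadjusted p under 0.05). Sox17, Cx3cr1, Cdh19 and Bpgm each kept their call in 1 of the 6 fits with a heart left out. Sox17, Cdh19 and Bpgm were not called without the term for the code. The 72 h and 7 d hearts overlapped for Sox17. Over all genes tested, 4.33% were called higher and 2.44% lower.

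The position of the called genes beside the 3 control hearts showed several courses. Of the 456 genes that rose, 187 had a 72 h mean within the range of the controls and a 7 d mean above it, 136 were above it at both times, and 115 went from below it to above it. Nmrk2, Pfkp and Zfp180 were among the 187, Nppb, Acta1 and Ankrd1 among the 136, and Gdf15, Gpx1 and Eln among the 115. In that order, these courses took in 41.0%, 29.8% and 25.2% of the genes that rose. Among genes not called, the same courses took in 16.1%, 14.1% and 4.15%. Of the 257 that fell, 125 were below the range at both times, as Mipep, Eif3m and Tsc22d3 were, 88 went from within it to below it, as Sdhc and Cox7a1 did, and 28 went from above it to below it, as Fabp3, Acadm, Cox6a2, Myoz2 and Tnnc1 did. In that order, the courses of the genes that fell took in 48.6%, 34.2% and 10.9% of them. Among genes not called, the same courses took in 17.5%, 5.75% and 0.702%. No control heart carried the second code, so these positions describe the levels and carry no test.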

How the data were processed

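Strand-specific paired-end poly(A)+ RNA sequencing (Illumina GAII) was measured in the ventricles of 15 mice, 3 in each of 5 groups, each heart a separate animal. Per the labels and the study's methods, the authors aligned reads with Bowtie and TopHat to mm9 (the sources used here give no versions) and deposited RPKM values, that is reads per kilobase of the constitutive coding sequence of RefSeq genes scaled to the number of reads that mapped uniquely outside ribosomal and mitochondrial sequence. The values carry 2 decimals, and depth is unknown, so no counting interval is given. The sources used here do not say whether the counting used strand. Since RPKM is relative to all other mRNA in a heart, a change of very abundant genes moves the rest.

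Groups came from the sample titles. The 10540 genes whose RPKM averaged 1 or more across the 72 h and 7 d hearts were tested in limma 3.58.1 (R 4.3.3) on log2(RPKM + 0.5), with the 5 groups and the title code as terms, all 15 hearts sharing the spread and a mean-variance trend, and p-values were adjusted over the 10540 genes by Benjamini and Hochberg (threshold 0.05). A fold change on this scale understates the change of low genes. The title code is used only as the labels give it. The model was also run on data simulated from its own fit with independent normal noise, so that run could not test its assumptions. Celf2 was also compared by an exact permutation test (scipy 1.17.1). The genes, the comparison and the 46 gene lists were chosen with earlier results of these data known, and lists are described by counts and medians. Named genes were Celf2, Celf1 and the Mbnl genes, the 15 largest rises and falls without overlap and with 1 sign in both codes, the called members of each list (the 4 with the smallest adjusted p where more were called, plus members against the majority) and the 3 most abundant stress genes, Acta1, Ankrd1 and Myh7. A few called list members are counted but not reported by name here. Other list members and the promoters were named after their values were seen. Symbols were matched to current NCBI records for 16146 of 16199 genes, and positions come from GENCODE annotation of mm9. Promoter sequences were taken from RefSeq and searched for CACGTG and AGGTCA on both strands. Alternatives were other pseudocounts, minimum levels, scalings, models and samples. Splicing, other time points and other tissues of the study were not analysed here.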

Additional observations from a re-analysis of the deposited data

How the results depend on the processing

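No called gene changed direction in any of the 20 alternative settings, but the number of calls depended on the model and on single hearts. Beside 456 genes higher and 257 lower, 203 and 80 were called without a term for the code, 37 and 22 with the 6 hearts alone and no such term, 51 and 21 within the first code, 68 and 73 within the second code, and 956 and 502 with library weights. Lower genes numbered 411 after median-ratio scaling, 447 after upper-quartile scaling and 413 after quantile normalization. With 1 heart left out at a time, between 53 and 329 genes were called higher and between 24 and 188 lower. The lowest counts came without A6750 (53 and 24) and without A6838 (57 and 61), which leave 1 code in the contrast, and those without A6834 were 241 and 144, without A6837 282 and 165, and without A6836 329 and 154. Without A6835, 280 rose and 188 fell. The other pseudocounts and minimum levels, the fit without a mean-variance trend and the 6 hearts alone with the code gave counts within 1.5 times the main ones. Of the 100 named genes that were called, 94 kept the call after median-ratio scaling, 57 without the term for the code, 17 without A6750 and 38 without A6838. The ratio of Celf2 lay between 1.33 and 1.55 with 1 heart left out. No paired analysis was possible because the titles give animal numbers and no replicate numbers shared between groups. The 3 hearts per group limit an exact test to p = 0.1, and low genes are limited by the unknown depth.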

Other observations

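Of the 713 genes called between 72 h and 7 d, 599 were in none of the lists. The 20 of these with the smallest p are the source of the genes given here, which were chosen after their values were seen and carry no further test. Anxa5, a calcium-dependent phospholipid-binding protein, had 79.8, 79.0 and 85.3 RPKM at 72 h and 158, 173 and 160.2 RPKM at 7 d, after a control mean of 84.0 RPKM (log2 change 0.97, SE 0.08, adjusted p = 5.15e-05). Dstn, which encodes the actin-severing protein destrin, had 58.6, 52.3 and 55.3 RPKM at 72 h and 101, 96.8 and 109 RPKM at 7 d (log2 change 0.88, SE 0.09, adjusted p = 0.000257). Both had every 7 d heart above every 72 h heart and nearly equal differences within the codes. Ugp2, which makes UDP-glucose for glycogen, had 106, 113 and 104 RPKM at 72 h and 211, 182 and 179 RPKM at 7 d (log2 change 0.87, adjusted p = 0.000473). The fucosidase gene Fuca2, the kinase gene Stk24, Bambi, a decoy receptor of the TGF-beta family, and Ckap4 rose by 0.86, 0.76, 0.89 and 0.87 on the log2 scale.

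Nrd1, the metalloprotease nardilysin, had 68.3, 70.7 and 66.0 RPKM at 72 h and 40.6, 33.1 and 37.5 RPKM at 7 d, beside a control mean of 69.8 RPKM, so that it left the level of the controls between 72 h and 7 d (log2 change -0.83, SE 0.08, adjusted p = 0.000122). Rpl3l, the striated muscle paralog of the ribosomal protein gene Rpl3, had 151, 139 and 188 RPKM at 72 h and 95.3, 109 and 110.3 RPKM at 7 d (log2 change -0.69, SE 0.08, adjusted p = 0.000460), whereas Rpl3 had 130.3, 114 and 144 RPKM at 72 h and 159, 201 and 205 RPKM at 7 d (log2 change 0.44, adjusted p = 0.0178). The means of Rpl3l were 189 RPKM in controls and 105 RPKM at 7 d, and those of Rpl3 were 137 and 188 RPKM. The difference between these paralogs was not tested. Retsat, a retinol saturase, had 23.2, 21.7 and 27.7 RPKM at 72 h and 12.6, 11.7 and 13.0 RPKM at 7 d (log2 change -0.97, SE 0.10, adjusted p = 0.000180). Asb14, Art5 and Adssl1, an adenylosuccinate synthase of muscle, fell by 0.87, 0.92 and 0.64 on the log2 scale.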
